A study of Mus musculus with 33 samples.

Results

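Smpx, Hrc, Mlip and Rrad are known mainly from striated muscle, and in a nucleus of the mouse auditory hindbrain, the medial nucleus of the trapezoid body (here MNTB), their transcripts had their highest mean level at postnatal day 6 (P6) among 7 sampled ages, as did 8.37% of all probe sets. They are 4 of the 14857 genes that the arrays name by a single symbol, and each was measured by 1 probe set. They were chosen from these same data because their level was higher at P6 than at P0 and lower again at P14, so the values at those 3 ages describe the choice and are given with no test. Principal neurons of the MNTB, a relay of the sound-localisation pathway in the brainstem, are glycinergic and each receive a giant terminal, the calyx of Held. Gene expression was measured on 33 arrays, each from the dissected MNTB of a single wild-type FVB mouse (the strain tag reads FVN), with 4 mice at P4, 4 at P14 and 5 at each of the other ages (P0 to P3 and P6). The tissue was cut from live slices with a needle, which enriches for the nucleus but isolates no cell type, and no mouse received a treatment. In such bulk tissue, fewer cells of a type and less RNA per cell cannot be told apart.

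Striated muscle contracts when calcium leaves an internal store, the sarcoplasmic reticulum, and is pumped back into it. Neurons use related stores in the endoplasmic reticulum and voltage-gated calcium channels of the same families. Smpx encodes the small muscular protein, which lies near the membrane attachments of the contractile apparatus, and variants in the human gene cause an X-linked hearing loss. Mlip encodes a protein that binds lamin A/C of the nuclear envelope and is abundant in heart and skeletal muscle. Hrc encodes the histidine-rich calcium-binding protein of the sarcoplasmic reticulum, which binds triadin and the calcium pump there. Rrad encodes a small GTPase of the RGK family, whose members bind the beta subunits of high-voltage calcium channels and reduce their current.

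The upstream sequences are shown so that the letters before each start can be read beside the gene's course; a like course was how the genes were chosen and is no ground for a shared element. They are given for the 3 genes that RefSeq's promoter table for GRCm38.p6 lists, Smpx, Hrc and Mlip. Each runs 5′ to 3′ over the 250 bases before the gene's start, at chrX:157698723-157698972 on the plus strand, chr7:45335019-45335268 on the plus strand and chr9:77347871-77348120 on the minus strand (the first of 2 listed starts). The capitals mark CAGCTG, an E-box sequence bound by muscle basic helix-loop-helix factors among others.
Smpx: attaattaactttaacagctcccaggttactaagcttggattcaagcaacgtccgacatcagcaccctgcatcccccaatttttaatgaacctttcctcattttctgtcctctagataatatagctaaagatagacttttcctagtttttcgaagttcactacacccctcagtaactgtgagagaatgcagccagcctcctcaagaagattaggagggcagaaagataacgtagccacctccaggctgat
Hrc: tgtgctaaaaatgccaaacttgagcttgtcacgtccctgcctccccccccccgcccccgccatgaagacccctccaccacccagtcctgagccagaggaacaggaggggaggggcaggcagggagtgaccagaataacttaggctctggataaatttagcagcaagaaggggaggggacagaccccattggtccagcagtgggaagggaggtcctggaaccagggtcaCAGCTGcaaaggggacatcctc
Mlip: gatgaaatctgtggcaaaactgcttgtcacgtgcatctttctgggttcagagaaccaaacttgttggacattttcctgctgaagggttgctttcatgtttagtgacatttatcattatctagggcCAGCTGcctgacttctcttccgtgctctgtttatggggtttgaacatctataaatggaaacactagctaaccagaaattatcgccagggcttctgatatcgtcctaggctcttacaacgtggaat
The E-box CAGCTG began at base -22 from the start of Hrc and at base -125 from that of Mlip, and its letters were not in the Smpx window. Of 27025 windows of the same length, 1 per gene, 12.8% held it on either strand (the sequence reads the same on both). The MEF2 consensus (in 3.01% of all windows), the CArG box (1.4%), the cyclic AMP response element TGACGTCA (1.62%) and the shorter TGACG (17.9%, which includes every full element) were searched on both strands and had no match in these 3 windows. A match is a string of letters and not a measured binding site.

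Smpx had the widest range of the 4 genes. Its log2 values, in the order of the litter numbers, were 4.56, 4.79, 4.76, 4.02 and 4.43 at P0 and 5.80, 5.43, 6.08, 5.47 and 5.09 at P1. The P2 mice read 6.55, 5.73, 6.65, 6.66 and 4.89, and the P3 mice 6.81, 6.48, 6.3, 8.12 and 7.5. No P1 mouse reached down to the P0 values, a separation that held for 0.587% of all probe sets, while the P2 mouse of litter 5 lay below every P1 mouse. Smpx read 7.14, 7.17, 6.67 and 7.86 at P4 (litters 1, 2, 3 and 5), and 8.03, 7.55, 8.26, 8.36 and 7.95 at P6. At P14 it read 5.89, 4.84, 7.02 and 6.10 (litters 1, 2, 3 and 5). The 5 P6 mice overlapped the P4 mice through litter 5 of P4, and all lay above the P0 and P14 mice. The P0 mean was 4.51 ± 0.31 (SD, n = 5), the P6 mean 8.03 ± 0.31 (n = 5) and the P14 mean 5.96 ± 0.89 (n = 4). All 4 P14 mice lay above the P0 mice, the means differing by 1.45 on the log2 scale, where 25.5% of all probe sets had no overlap between those ages in either direction. The lowest P14 mouse (4.84, litter 2) lay just above the highest P0 mouse (4.79, litter 2). Relative to the medians of their arrays the order was reversed, at -0.18 for that P14 mouse and -0.13 for that P0 mouse. In the order of the age means (P6, P4, P3, P2, P14, P1, P0), only P1 and P0 were neighbours whose mice did not overlap.

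Mlip had a similar course with a wider scatter among pups. Its log2 values in litter order were 4.89, 5.25, 5.85, 4.43 and 5.20 at P0 and 5.94, 6.09, 6.16, 3.98 and 5.34 at P1. They were 6.95, 6.02, 6.68, 5.54 and 5.97 at P2 and 6.65, 6.92, 6.33, 7.68 and 6.01 at P3. The P1 mouse of litter 4 held the lowest Mlip value of all 33 arrays, although its Hrc and Rrad values were the highest of the P1 mice. Mlip read 6.95, 6.38, 7.87 and 6.96 at P4, 7.70, 7.95, 7.78, 7.04 and 7.5 at P6, and 5.79, 6.22, 6.78 and 6.20 at P14. The P0 mean was 5.13 ± 0.52 (SD, n = 5), the P6 mean 7.59 ± 0.35 (n = 5) and the P14 mean 6.25 ± 0.41 (n = 4). The P6 mice overlapped neither the P0 nor the P14 mice but did overlap the P4 mice. At P14 the mean was 1.12 above that of P0, with a P14 mouse (5.79) inside the range of the P0 mice. In the order P6, P4, P3, P14, P2, P1, P0, every pair of neighbours overlapped.

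Hrc varied little between mice, with an SD of at most 0.2 at each age, and its level was nearly flat from P4 to P6. The log2 values in litter order were 4.50, 4.93, 4.73, 4.66 and 4.53 at P0, 5.12, 5.36, 5.07, 5.50 and 5.36 at P1, and 5.65, 5.53, 5.67, 5.39 and 5.26 at P2. They continued at 6.00, 5.77, 5.88, 5.67 and 6.10 at P3 and 6.12, 5.94, 5.97 and 6.31 at P4. The P0 mice lay below all P1 mice, as held for 0.587% of all probe sets, and after P1 each age overlapped the next up to P6. Hrc read 6.25, 6.22, 5.91, 5.91 and 6.32 at P6, and 4.70, 4.74, 4.71 and 4.88 at P14. The P6 mean of 6.13 ± 0.2 (SD, n = 5) exceeded the P4 mean of 6.09 ± 0.17 (n = 4) by 0.04, within the spread of the mice, so for Hrc the data show a plateau from P4 to P6 rather than a peak at P6 alone. The P14 mean of 4.76 ± 0.08 (n = 4) and the P0 mean of 4.67 ± 0.17 (n = 5) differed by 0.09 and their mice overlapped. In the order P6, P4, P3, P2, P1, P14, P0, only P1 and P14 were neighbours without overlap.

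Rrad was dim throughout, below the median of its array in every mouse except 1 of the 5 at P6, so its changes are compressed and no fold is given for it. Its log2 values in litter order were 3.62, 3.60, 3.85, 3.56 and 3.76 at P0, 3.84, 3.76, 3.97, 4.02 and 3.69 at P1, and 3.95, 3.94, 3.69, 3.64 and 3.82 at P2. They were 4.04, 3.76, 3.92, 4.17 and 4.30 at P3 and 4.41, 4.01, 4.43 and 4.63 at P4. The mice of P0, P1 and P2 overlapped, and 3 of 4 P4 mice lay above every mouse of those ages. Rrad read 5.00, 4.99, 4.80, 4.44 and 4.61 at P6, and 3.69, 3.74, 3.48 and 3.83 at P14. The mean was 3.68 ± 0.12 (SD, n = 5) for P0, 4.77 ± 0.24 (n = 5) for P6 and 3.69 ± 0.15 (n = 4) for P14, and the P14 and P0 mice overlapped. In the order P6, P4, P3, P1, P2, P14, P0, every pair of neighbours overlapped.

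**Figure D1:**
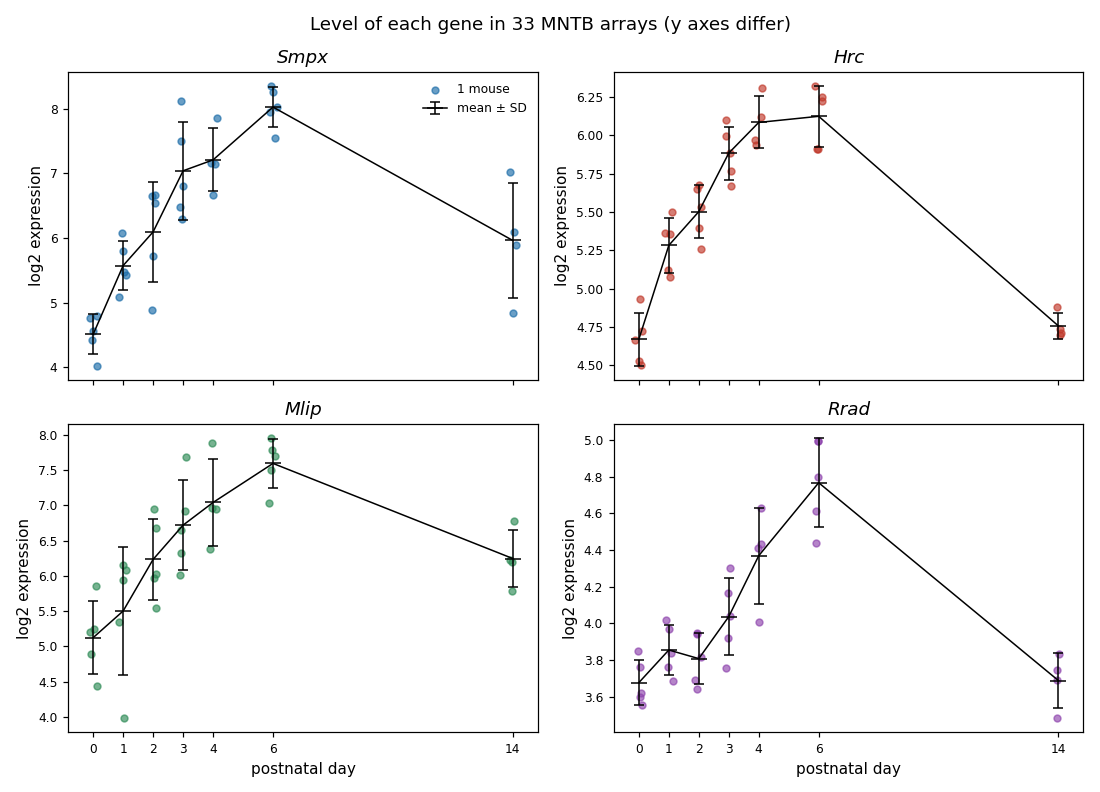
Log2 expression (y axis, a scale of its own in each panel) against postnatal day (x axis) for Smpx, Hrc, Mlip and Rrad, with each mouse as a point and the mean ± SD of each age in black. All 4 genes have their highest mean at P6, and Hrc is almost level from P4 to P6. At P14 the means of Hrc and Rrad lie near their P0 means, while those of Smpx and Mlip lie above theirs. The P14 and P0 mice of Mlip overlap.

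As a description of the ages on which the genes were chosen, Hrc had covered most of its way to P6 by P4, and Hrc and Rrad were back near their P0 level by P14. The P6 mean exceeded the P0 mean by 3.51 for Smpx, 2.47 for Mlip, 1.46 for Hrc and 1.09 for Rrad on the log2 scale, and in each gene the P6 mice did not overlap the P0 mice, as held for 3.99% of all probe sets in that direction. At P1 the mean had covered 42.1% of that log2 difference for Hrc, 30.2% for Smpx, 16.4% for Rrad and 15.3% for Mlip. At P4 the shares were 97.3% for Hrc, 77.6% for Mlip, 76.8% for Smpx and 63.4% for Rrad. The log2 difference of P14 from P6 was -2.06 for Smpx, -1.37 for Hrc, -1.35 for Mlip and -1.08 for Rrad, and the P14 mice lay below all P6 mice, as for 4.47% of probe sets. Its size equalled 99% of the earlier difference for Rrad and 94% for Hrc, against 58.7% for Smpx and 54.6% for Mlip. No age between P6 and P14 was sampled, so the time of the highest level is known only among the 7 ages. The P0 means of Smpx and Hrc lay below the median of their arrays, which averaged 4.947, so their differences from P0 are compressed too. Hrc also lay below the array median in all 4 P14 mice, so its difference from P6 to P14 and the 94% return are compressed likewise.

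Array quality bears on these values. Arrays of the same age correlated over all probe sets with Pearson's r from 0.9671 to 0.9904, and none were identical. The litter 4 arrays of P1, P2 and P6 had the lowest weights in limma's array quality model (0.45, 0.432 and 0.271). The P6 mouse of litter 4 had the highest Smpx value of its age and the lowest Mlip and Rrad values. Without these 3 arrays the change from P0 to P6 was 3.43 for Smpx, 2.61 for Mlip, 1.51 for Hrc and 1.17 for Rrad, and that from P6 to P14 was -1.98, -1.49, -1.42 and -1.16.

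All 4 genes rose between P1 and P4, ages other than the P0, P6 and P14 whose values describe the choice. Limma's moderated test on the P4 minus P1 difference, with the spread estimated over all 33 arrays and Benjamini-Hochberg adjustment over 16686 probe sets, called 4 of 4 higher. Of all probe sets, 1.2% were called higher, 0.671% lower and 1.87% in either direction. Of the 84 probe sets called higher at P6 than P0 and then lower at P14 (0.503% of all), 20 were called higher at P4 than P1. Both counts run over all probe sets without leaving out the 4 genes, so they are no separate group to set the 4 beside. The genes were chosen with results of all ages known, and a choice on a peak at P6 makes a rise from P1 to P4 likely. These calls are therefore no independent support for the course of the 4 genes. The test also shares its estimate of the spread with the ages that chose the genes.

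The log2 level of Hrc rose by 0.8 with an SE of 0.116 over 4 mice and 5 (adjusted p = 4.63e-05 in limma), a 1.74-fold difference, and all 4 P4 mice lay above all P1 mice. Smpx rose by 1.64 ± 0.376 (adjusted p = 0.0142), or 3.11-fold, also with no overlap, and Mlip rose by 1.54 ± 0.382 (adjusted p = 0.0268), or 2.9-fold, again with no overlap. Such separation of P4 above P1 held for 2.89% of all probe sets. Rrad rose by 0.51 ± 0.125 (adjusted p = 0.0231), and its lowest P4 mouse (4.01) lay just under its highest P1 mouse (4.02). The Hrc call held under every alternative tried (adjusted p from 3.83e-06 to 0.00925). That of Smpx was lost without P4 litter 5 (adjusted p = 0.0893). That of Mlip was lost without P1 litter 4 (adjusted p = 0.0774), P1 litter 5 (0.0625), P4 litter 1 (0.0588), P4 litter 3 (0.163) or P4 litter 5 (0.0667). That of Rrad was lost without P1 litter 2 (adjusted p = 0.059), P1 litter 5 (0.0723), P4 litter 1 (0.0693), P4 litter 3 (0.0782) or P4 litter 5 (0.139). With only the P1 and P4 arrays in the limma fit, the adjusted p was 0.166 for Mlip and 0.106 for Rrad. Over the same days 8 of 9 measured oligodendrocyte markers, 3 of 8 principal neuron markers and 3 of 7 astrocyte markers were called higher, beside 1.2% of all probe sets. None of these 3 lists had a gene called lower, beside 0.671%. No gene was called in the lists of skeletal, cardiac and vascular smooth muscle with pericytes, microglia, endothelium and motor neurons. Without single mice, up to 1 gene of the endothelium list and up to 1 of the motor neuron list was called higher. The mean log2 level of the oligodendrocyte list lay between 4.82 and 5.09 in the P1 mice and between 6.13 and 6.74 in the P4 mice, and that of the principal neuron list between 6.95 and 7.11 and between 7.65 and 8.1. The part of these cells in the rise of the 4 genes was not tested.

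No single day carried these rises past the test. Of the 12 changes from P1 to P2, P2 to P3 and P3 to P4 none passed in limma (adjusted p from 0.626 to 1), where 0.018%, 0.024% and 0.012% of all probe sets were called. Smpx changed by 0.52 (95% interval -0.2 to 1.25), 0.95 (0.22 to 1.67) and 0.17 (-0.6 to 0.94) in the 3 steps. Hrc changed by 0.22 (-0.00323 to 0.44), 0.38 (0.16 to 0.6) and 0.2 (-0.04 to 0.44), with the largest estimate from P2 to P3; a difference between the steps was not tested. Mlip changed by 0.73 (-0.00525 to 1.47), 0.49 (-0.25 to 1.22) and 0.32 (-0.46 to 1.1). Rrad changed by -0.05 (-0.29 to 0.19), 0.23 (-0.01 to 0.47) and 0.33 (0.08 to 0.59), so its estimates were larger in the later steps, though the intervals overlap. Single mice moved these steps by more than 1.5 times in places. For Mlip the change from P1 to P2 was 0.352 without P1 litter 4, that from P2 to P3 0.244 without P3 litter 4 and 0.313 without P2 litter 4, and that from P3 to P4 ran from 0.0419 without P4 litter 3 to 0.561 without P3 litter 4. For Smpx the change from P1 to P2 was 0.821 without P2 litter 5, and that from P3 to P4 ran from -0.0467 without P4 litter 5 to 0.437 without P3 litter 4, and was -0.0173 without P3 litter 3. From P4 to P6 the mean was higher by a further 0.82 for Smpx, 0.55 for Mlip, 0.4 for Rrad and 0.04 for Hrc, with the mice of both ages overlapping in each gene. Since the genes were chosen for high P6 values, those differences are given with no test.

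**Figure D2:**
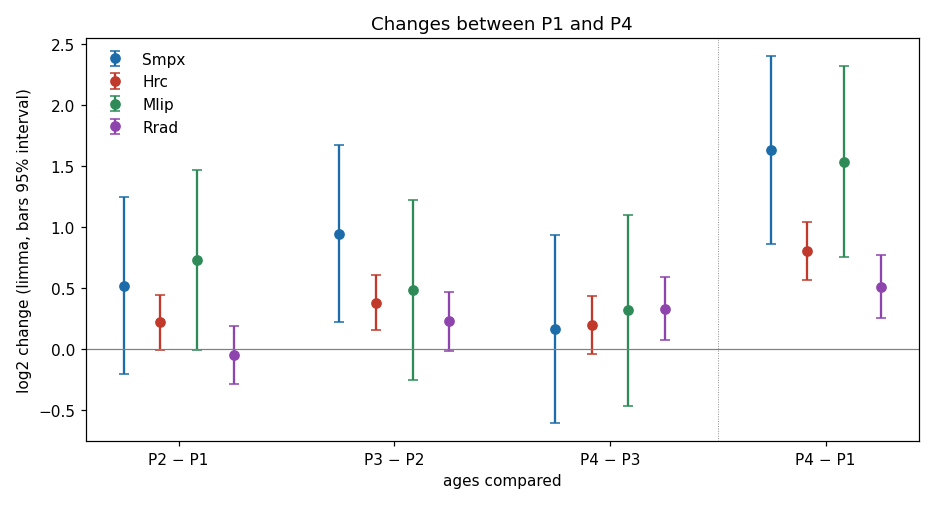
Log2 change (y axis) with its 95% interval in limma for the single-day steps from P1 to P4 and for P4 minus P1 (x axis), by gene. The intervals for P4 minus P1 lie above 0 for all 4 genes, while 3 of the 12 single-day intervals do, those of Smpx and Hrc from P2 to P3 and that of Rrad from P3 to P4.

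None of the other contractile genes measured was called higher at P6 and then lower at P14. Both calls held for 0.503% of all probe sets, so their absence in a list of this size is near the background share. Of 59 listed genes of the sarcomere, Z-disc and costamere 40 were measured, and limma called 6 higher and 0 lower at P6 than at P0 (1 lower without P0 litter 2 or 5), beside 6.42% and 7.95% of all probe sets. Their median change was 0.0244, against -0.00665 over all probe sets. Most of the 40 had P6 means under the average median of the P6 arrays, 4.953, such as Des (3.71) and Tcap (3.58). Changes are compressed at that level, so a missing call there says little. From P6 to P14, 8 were called higher and 1 lower, beside 15.7% and 5.14% of all probe sets. Nexn, an actin-binding protein of the Z-disc, rose by 3.1 ± 0.205 (adjusted p = 1.43e-12) and then by a further 1.41 ± 0.218. Cryab, a small heat-shock chaperone of muscle and of glia, rose by 1.64 and then by 1.76. Myl2, the regulatory light chain of cardiac and slow muscle myosin, rose by 1.78 ± 0.463 (adjusted p = 0.00755), a call lost with only those ages fitted (adjusted p = 0.0581), with an SD of 1.3 among the P0 mice, and its change to P14 was -0.49 (adjusted p = 0.569). Mb, the oxygen-binding myoglobin, rose after P6, by 2.28. The gene called lower at P14 was the cardiac troponin Tnnt2 (-1.46), named here after its value was seen. Skeletal actin, Acta1, was not called, with changes of -0.41 (adjusted p = 0.192) and -0.36 (adjusted p = 0.263).

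The age means of the skeletal muscle marker list ran from 4.31 (P2) to 4.47 (P0) on the log2 scale, with 4.38 at P6. None of the 9 measured skeletal muscle markers of 14 was called between P0 and P6. Of all probe sets, 6.42% were called higher and 7.95% lower there. From P6 to P14 those shares were 15.7% and 5.14%, and 1 marker was called higher, so both counts are near the background. It was Mylpf, a fast myosin light chain (0.65, adjusted p = 0.0243 in limma, lost without P6 litter 1 or 4 or P14 litter 2 or 5). The mean log2 level of the list lay between 4.19 and 4.87 in the P0 mice and between 4.24 and 4.59 in the P6 mice. In the P14 mice it lay between 4.3 and 4.37. At P6, 8 of the 9 had means under the average median of the P6 arrays, 4.953, the exception being the creatine kinase Ckm at 5.21, which stood at 5.17 at P0 and 5.02 at P14. Of 6 measured cardiac markers of 11, Myl2 was called higher at P6 (and 1 other without P0 litter 5, while 1 fell without P0 litter 2 or 5). The list lay between 4.35 and 4.94 at P0, 4.69 and 4.96 at P6 and 4.19 and 4.93 at P14. Its age mean was highest at P6 (4.85), against 4.53 at P0 and 4.65 at P14. Myl2 also had its highest mean at P6, at 4.64, 6.42 and 5.93 for P0, P6 and P14. No other measured marker of that list had its highest mean at P6. The 10 markers of vascular smooth muscle and pericytes lay between 4.76 and 4.99 at P0, 4.87 and 5.11 at P6 and 5.31 and 5.65 at P14. From P6 to P14, 6 of 10 were called higher, beside 15.7% of all probe sets. The markers of MNTB principal neurons were present in the labelled tissue, 8 of 10 being measured, with list means of 6.43 to 6.85 at P0, 7.89 to 8.5 at P6 and 8.76 to 9.15 at P14. From P6 to P14, 6 of those 8 were called higher and 2 lower, beside 15.7% and 5.14% of all probe sets. The part that the number of cells of any type had in the levels of the 4 genes was not tested.

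**Figure D3:**
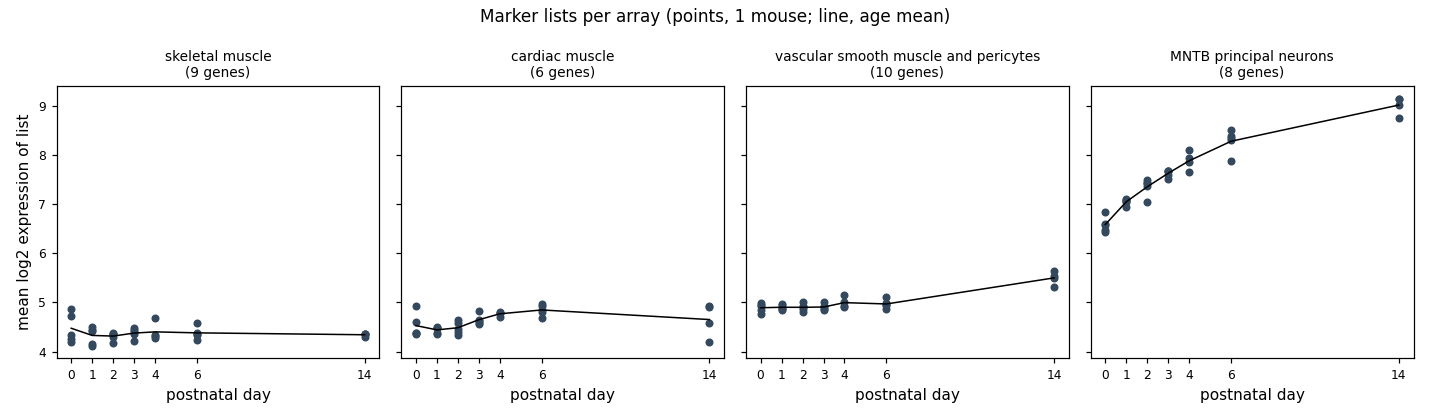
Mean log2 expression of the measured genes of 4 marker lists (y axis) against postnatal day (x axis), with each mouse as a point and a line through the age means. The skeletal muscle list stays near the same level at all ages, and the cardiac list has its highest mean at P6. The principal neuron list is highest at P14.

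The calcium store, in which Hrc acts, held genes that rose by P6, among them a release channel and the calcium pump. Of 32 listed genes of the sarcoplasmic and endoplasmic reticulum store 30 were measured, and 5 were called higher and 3 lower at P6 than at P0, beside 6.42% and 7.95% of all probe sets. From P6 to P14, 8 were called higher and 0 lower, beside 15.7% and 5.14%, and 4 and 3 after quantile normalization, where the share of higher calls over all probe sets went from 75.4% to 51.2%. Leaving out single mice gave 4 higher without P6 litter 4 or P14 litter 1, 5 without P14 litter 3, and 1 lower, Itpr2, without P6 litter 4. Itpr2, an inositol trisphosphate receptor that releases calcium from the store, rose by 2.35 ± 0.149 from P0 to P6 (adjusted p = 4.48e-13), and its change to P14 was -0.31 (adjusted p = 0.179), which passed as lower without P6 litter 4 (adjusted p = 0.0483), without the 3 arrays of lowest weight (0.0262), with the litter number as a block (0.033), with array weights (0.00766) and after quantile normalization (0.00247). S100a1, a calcium-binding regulator of the pump and of the ryanodine receptor, rose by 1.68, and by a further 0.85 to P14 (adjusted p = 0.0349). The second rise of S100a1 was lost without any 1 of P6 litters 2 and 4 or P14 litters 1, 3 and 5 (adjusted p from 0.0658 to 0.105), without the 3 arrays of lowest weight (0.0916) and after quantile normalization (0.1). The calcium pump Atp2a2 rose by 0.57 ± 0.0837 to P6 (adjusted p = 8.21e-06) and its change to P14 was -0.05. The ryanodine receptor Ryr2 was not called in either comparison, at -0.23 and -0.11. The junctional protein Jph1 rose after P6, by 1.1, and the store-operated channel subunit Orai2 fell by 1.08 from P0 to P6 (adjusted p = 0.0297), a call lost when the P0 mouse of litter 1 or 3, or the P6 mouse of litter 1, 2 or 4, was left out.

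Among RGK genes and subunits of the calcium channels that RGK proteins inhibit, more genes were called lower than higher in both intervals. Of 17 listed genes 14 were measured, and 1 was called higher and 6 lower at P6 than at P0 (2 higher without P6 litter 4), where 6.42% and 7.95% of all probe sets were. The counts from P6 to P14 were again 1 and 6, where 15.7% and 5.14% of all probe sets were called, and 1 and 10 after quantile normalization. The median changes were -0.199 and -0.362, against -0.00665 and 0.054 over all probe sets. Rem2, an RGK GTPase of neurons, fell by 0.54 and then by 0.76. Gem, another RGK GTPase, was not called, with changes of 0.00677 (adjusted p = 0.991) and -0.23 (adjusted p = 0.518). Its means at P0, P6 and P14 (4.03, 4.04 and 3.81) lay under the average array medians, so its changes are compressed. The R-type channel Cacna1e fell by 0.95 to P6 and by 3.32 to P14 (adjusted p = 2.9e-15), and the N-type channel Cacna1b fell by 0.93 and 0.6. Among beta subunits, to which RGK proteins bind, Cacnb1 fell by 0.8 to P6 while Cacnb4 rose by 0.6 and then by 0.7.

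Among genes of the nuclear lamina, to which Mlip binds, none was called higher and then lower, and Mef2c was the muscle factor that was. Such calls held for 0.503% of all probe sets, so having none among the lamina genes is near the background share. Of 18 lamina and envelope genes 15 were measured, and 1 was called higher and 4 lower at P6 than at P0, beside 6.42% and 7.95% of all probe sets, so the 1 higher call is near the background share. Lmna, which encodes lamin A/C, was not called in either comparison, at 0.12 (adjusted p = 0.516) and 0.26 (adjusted p = 0.0704), but was called higher at P14 without P6 litter 2 or P14 litter 1. Its means at P0, P6 and P14 (3.79, 3.91 and 4.16) lay under the average array medians, so its changes are compressed. The 1 rise was that of the nuclear anchoring protein Syne1 (0.45, adjusted p = 0.0347), lost when a P0 mouse (litter 3, 4 or 5) or a P6 mouse (litter 1, 2 or 5) was left out, and Sun1 fell by 0.42 (adjusted p = 0.048), lost likewise for litters 1 to 4 of P0 and 2 to 4 of P6. The lamina counts at P6 ran from 0 to 2 higher and from 2 to 4 lower over the left-out mice (2 lower without P0 litter 2, 3 or 4). The protease Zmpste24, which matures lamin A, rose by 0.84 after P6 and Tmpo fell by 0.5, among 2 higher and 1 lower, beside 15.7% and 5.14% of all probe sets (2 and 3 after quantile normalization). Of 20 measured muscle transcription factors and cofactors of 21, 1 rose and 1 fell between P0 and P6, both under the background of 6.42% and 7.95%, and 2 rose (1 without P6 litter 3 or 4 or P14 litter 1, 2 or 5) and 3 fell to P14, beside 15.7% and 5.14%. Mef2c, a factor of muscle and of neurons, rose by 0.48 ± 0.131 (adjusted p = 0.0111) and fell by 0.58 ± 0.139 (adjusted p = 0.00216), with 0.22 between P1 and P4 (adjusted p = 0.633). Its relative Mef2a was not called to P6 (-0.11) and fell by 0.77 to P14. The 1 fall to P6 was that of Hdac4 (-0.39), named after its value was seen and lost without P0 litter 4 or P6 litter 3 or 4.

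Immediate-early genes respond to neuronal activity and to handling. Of 22 listed 20 were measured, and 5 rose and 0 fell from P0 to P6, beside 6.42% and 7.95% of all probe sets. From P6 to P14, 11 rose and 1 fell (2 fell without P6 litter 4 or P14 litter 5), beside 15.7% and 5.14%, so more rising than falling held for the whole array too, and 9 rose and 3 fell after quantile normalization. Fosl2 rose by 0.97 and Nr4a3 by 1.02 to P6, with later changes of -0.13 (adjusted p = 0.514) and -0.26 (adjusted p = 0.105), while both passed as lower after quantile normalization (adjusted p = 0.0447 and 0.015) and Nr4a3 also without P6 litter 4 or P14 litter 5. Btg2 rose by 1.19 and Dusp1 by 1 after P6. The neurotrophin Bdnf rose by 0.32 (adjusted p = 0.00342) and fell by 0.54 (adjusted p = 6.26e-06). Over the 6 lists, 2 of 139 measured genes, Mef2c and Bdnf, were called higher and then lower, beside 0.503% of all probe sets, and Bdnf's first call was lost with only those ages fitted (adjusted p = 0.0566). The count was 5 after quantile normalization, with Itpr2, Fosl2 and Nr4a3, and 5 without P6 litter 4 or without the 3 arrays of lowest weight, with Itpr2, Nr4a3 and the L-type channel Cacna1c. It was 4 with array weights, with Itpr2 and Cacna1c, 3 with the litter block, with Itpr2, and 3 without P14 litter 5, with Nr4a3. It was 1, Mef2c, with only the ages compared or with dim probe sets dropped. Between P1 and P4 the genes called in these lists were Nexn (1.07), Itpr2 (1.33), S100a1 (1.27) and Fosl2 (0.59), all higher. With only those ages fitted, S100a1 and Fosl2 were not called, and S100a1 was not called without P4 litter 3 or 5. Further genes passed in some alternatives, Cryab (with the litter block, after quantile normalization and without P1 litter 3), Smyd1 (with array weights) and Nebl (with only those ages), all higher. Cacna1b passed as lower with the litter block (-0.39), after quantile normalization (-0.33), with array weights (-0.33) and without the 3 arrays of lowest weight (-0.34).

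**Figure D4:**
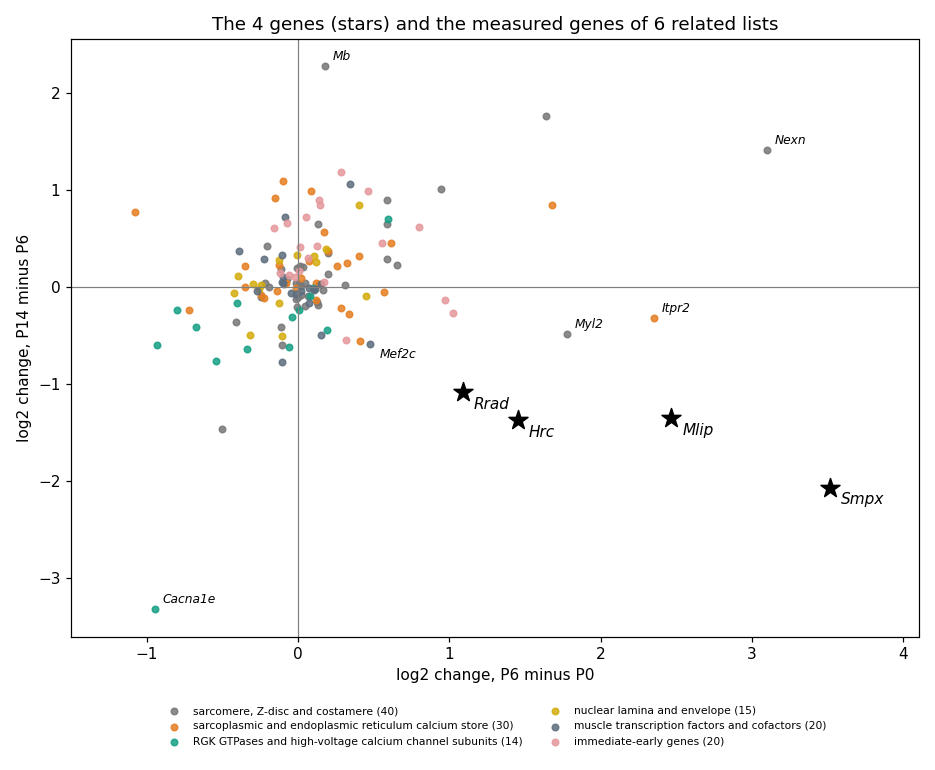
Log2 change from P6 to P14 (y axis) against that from P0 to P6 (x axis) for Smpx, Hrc, Mlip and Rrad (stars, placed there by how they were chosen) and for the 139 measured genes of 6 lists (dots, coloured by list). Most dots lie near 0 on both axes, Mef2c lies to the lower right of them, and Nexn is higher in both intervals while Cacna1e is lower in both.

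The genes whose values were most like those of the 4 were taken from 14435 named genes by Pearson's r over the 33 arrays, as a description in which all points share the ages. For Smpx they were the synaptic adhesion protein Lrrtm3 (r = 0.891), the Wnt pathway factor Tcf7l2 (0.837), the peptidase Mme (0.83), Galnt14 (0.816) and Arhgap24 (0.809). For Hrc they were Tmem215 (0.894), the matrix protease Adamts16 (0.892), the link protein Hapln1 (0.852), Lrrtm3 (0.847) and the GABA transporter Slc6a11 (0.839). For Mlip they were Arhgap24 (0.874), Gpr158 (0.873), the fucosyltransferase Fut8 (0.854), Mme (0.853) and the growth factor Kitl (0.848). For Rrad they were Adamts16 (0.853), the amino acid transporter Slc6a17 (0.832), Galnt14 (0.787), Hrc (0.786) and Tnfaip3 (0.767). Lrrtm3, Mme, Galnt14, Arhgap24 and Adamts16 each stood among the 5 for more than 1 of the 4 genes. Mean log2 Lrrtm3 for P0, P6 and P14 was 7.42, 9.3 and 8.3, and mean log2 Adamts16 was 4.4, 5.43 and 4.29.

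**Figure D5:**
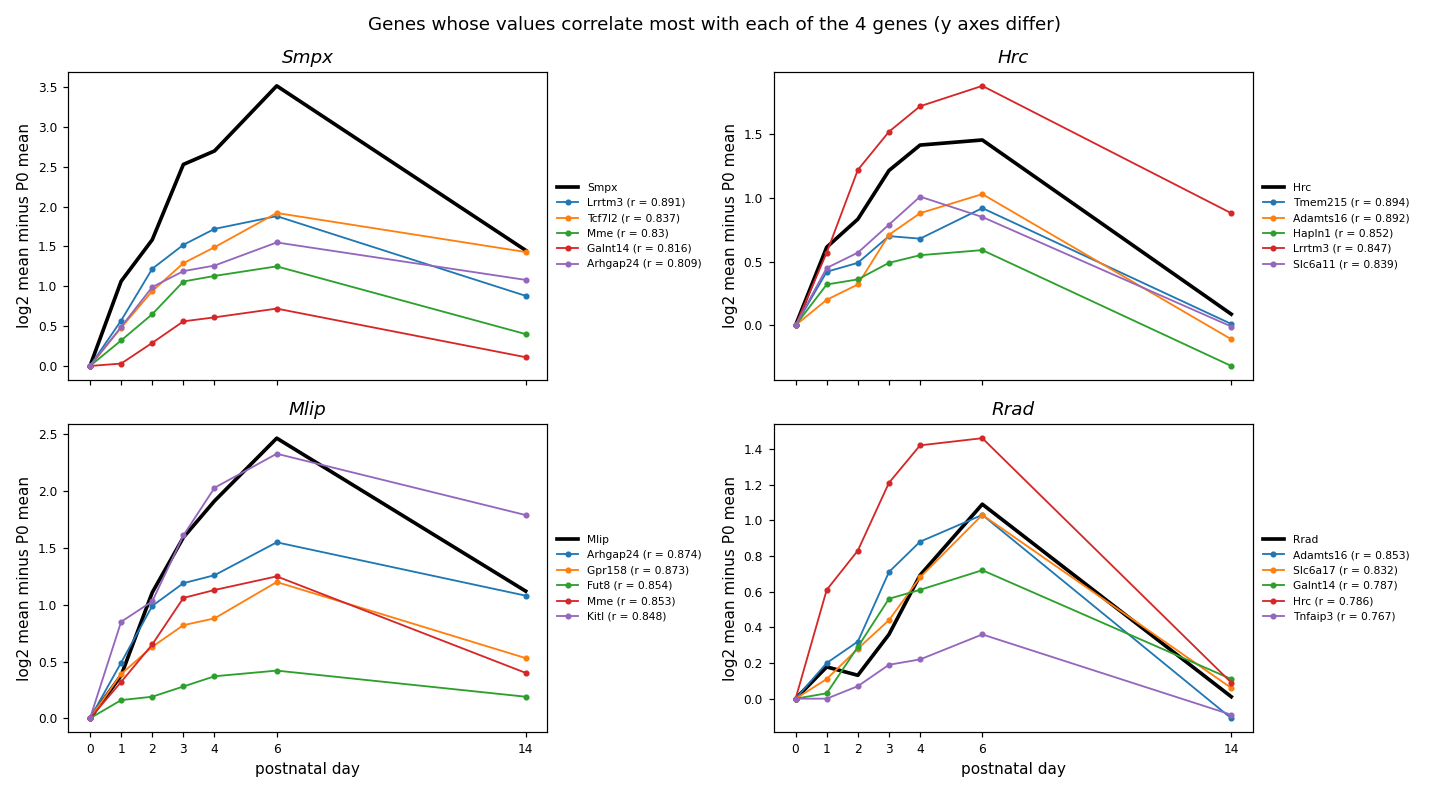
Age means of log2 expression minus the P0 mean (y axis, a scale of its own in each panel) against postnatal day (x axis) for each of the 4 genes (thick black) and the 5 genes with the highest Pearson's r over 33 arrays. Most of the genes beside Smpx and Mlip stay above their P0 mean at P14, and those beside Hrc and Rrad, apart from Lrrtm3, return close to or below it.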

How the data were processed

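The authors deposited log2 expression values for 33 arrays and 16686 probe sets, and the submitters' processing notes name Partek 6.3, RMA and build mm9. How RMA was set is not given in those notes. Per the labels' protocols, RNA was extracted with a Nanoprep kit and amplified before labelling, and amplification from little RNA can add spread between arrays. RMA assumes that most genes do not change, and dim probe sets are compressed.

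Gene names came from the platform annotation, updated through Entrez numbers to RefSeq symbols (14939 of 14993 probe sets with a single symbol). A gene was represented by its brightest probe set. The deposited values of the 33 arrays went into limma 3.58.1 (R 4.3.3), with 1 mean for each age. Tests were two-sided, adjusted by Benjamini-Hochberg over all probe sets, with a threshold of 0.05. The script was tested on simulated data. The precision is limited by the 4 or 5 mice per age. Litter numbers in the titles are not stated to mark the same litter at different ages.

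The 4 genes, the lists and the naming rule were chosen with earlier results of these data known. From each list, up to 4 genes with the largest called change between P0 and P6 or P6 and P14 were named, with any gene called higher and then lower and up to 2 fixed partners, of which Actc1 and Lmnb1 had no probe set with a single symbol. Alternatives were a litter block, quantile normalization, array weights, dropping dim probe sets, fitting only the ages compared, another variance model, a trend over P1 to P4 and leaving out each mouse, and, chosen after seeing the data, leaving out the 3 arrays of lowest weight.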

Additional observations from a re-analysis of the deposited data

How the results depend on the processing

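Between P1 and P4 the change of Smpx stayed between 1.42 and 1.81, that of Hrc between 0.73 and 0.87, that of Mlip between 1.16 and 1.76 and that of Rrad between 0.43 and 0.63 under all alternatives, with the same direction. Leaving out single mice gave Smpx 1.42 to 1.81, Mlip 1.16 to 1.76 and Rrad 0.43 to 0.63. With only the ages compared, Mlip (1.54) and Rrad (0.51) did not pass, a fit with fewer samples. Rrad could not be tested once dim probe sets were dropped. The call of Hrc held throughout.

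As to the litter number as a block, same-numbered mice of P1 and P4 correlated by 0.0071 to 0.19 in their deviations (2 of 4 pairs over 0.1, 2 of 4 mice correlating best with their own number), so the numbers were not taken as pairs. With that block the changes were 1.7, 0.79, 1.41 and 0.5 for Smpx, Hrc, Mlip and Rrad, all still called, and 286 probe sets were lower at P4 than P1. Block counts were 8 higher and 1 lower for P2 against P1 and 8 and 1 for P3 against P2.

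Counts over all probe sets depended on the processing and on single mice, and the cause was not tested. The calls of Smpx, Mlip and Rrad between P1 and P4 also depended on single mice, and those of Mlip and Rrad on which ages were fitted. P4 against P1 gave 200 higher and 112 lower, but 335 and 242 after quantile normalization, 313 and 351 with array weights, 74 lower with only those ages, 175 lower for the trend, 336 lower without the 3 arrays of lowest weight, and 131 to 176 higher and 60 to 189 lower without single mice (131 and 67 without P4 litter 5, 66 lower without P1 litter 2, 60 lower without P4 litter 1, 189 lower without P1 litter 4). P2 against P1 gave 3 and 0, but 14 and 1 by quantile, 13 and 2 with weights and 0 higher with only those ages. P3 against P2 gave 4 and 0, but 7 and 3 by quantile, 1 lower with weights, 0 higher with only those ages, 3 lower without the 3 arrays, and 2 to 7 higher without single mice. P4 against P3 gave 2 higher, 1 to 2 without single mice and 0 with only those ages. P6 against P0 gave 1327 lower, or 859 with only those ages. P14 against P6 gave 2627 higher and 858 lower (75.4% higher), or 1827 and 1740 (51.2% higher) by quantile, where the 4 genes changed by -2.29 (Smpx), -1.59 (Mlip), -1.5 (Hrc) and -1.07 (Rrad). The arrays give no measure of signal over background, so the level at which Rrad was above background is unknown.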
